A study of Mus musculus with 12 samples.

Results

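AP-1 is the dimeric transcription factor assembled from basic leucine zipper proteins of the Fos, Jun, Atf and Maf groups, and its subunits were followed here through the injury of murine hip cartilage with and without Mapk9. Every probe carrying the symbol of a listed subunit (Fos, Fosb, Fosl1, Fosl2, Jun, Junb, Jund, Atf3, Batf and Maff) was taken, which gave 12 probes of 9 genes among the 21004 probes of the deposited normalized table. Jund carried no probe under that symbol; its probe was found under the older symbol Jund1 through its accession, and it is described beside the 12 and not counted with them. Second probes of Junb and Maff lay outside the normalized table.

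AP-1 subunits are classical immediate early and early response genes: their transcripts rise from low levels soon after growth factors, cytokines, mechanical load or tissue damage. A Jun protein can pair with itself, with a Fos protein or with several Atf proteins, whereas Fos proteins need a partner, and Batf and the small Maf proteins carry no transactivation domain of their own. Mapk9 encodes the c-Jun N-terminal kinase JNK2, which phosphorylates Jun, and AP-1 is known in cartilage as a regulator of matrix-degrading proteases.

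The 12 arrays covered 4 groups of 3: control and injured hip cartilage of wild-type (WT) mice and of Mapk9 knockout (KO) mice, all on the C57BL6 strain and aged 4 to 6 weeks. All cartilage was taken by avulsion of the femoral epiphysis, which was the injury. It was then snap-frozen (control) or cultured for 4 h in serum-free medium (injured). Control cartilage was thus also avulsed, and injury, elapsed time and culture cannot be told apart. Below, before and after injury stand for these control and injured samples. Each replicate pooled hips of several animals, and p-values therefore measure the spread between pools. The knockout allele, the sex of the animals and the cells in which Mapk9 was removed are not given in the sources used here.

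The targeted gene followed its labels. The Mapk9 probe that starts at base 4211 of its transcript read 10.88, 10.90 and 10.50 (normalized log2) in WT control, 10.30, 10.57 and 10.05 in WT injured, 9.14, 9.28 and 9.15 in Mapk9 KO control, and 8.75, 8.78 and 8.69 in Mapk9 KO injured cartilage. Every KO array lay below every WT array, and the difference was -1.57 (log2) in control (limma, adjusted p = 0.0151) and -1.57 in injured cartilage (adjusted p = 0.00485). The probe at base 900 was not detected on any KO array. Where the deleted part lies relative to either probe is not given in the sources used here. Of 13 chondrocyte markers, 11 had a probe, 10 of them were detected on all 12 arrays, and none was undetected throughout. Detection does not single out cartilage, since 15 of 18 muscle, 9 of 9 neutrophil and 6 of 6 erythroid markers were also detected on all 12 arrays. Between 16930 and 18969 of 45281 probes were detected on each array.

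Fosb and Fosl2 carried several probes, so the sequences behind these signals come first. The arrays read 50-base probes, and the first 30 bases, as the authors' table gives them, are shown for these genes, whose probes differed in response, and for Fosl1, whose probe is named Ccdc85b in the table of raw signals.
Fosb probe at base 2: cgggttttccaggtgactattttggtgagt
Fosb probe at base 4042: ggtctgtctgttaattctggatttgtcggg
Fosl1 probe: gtagatccccaggggtcctttgacaccctt
Fosl2 probe at base 1083: gcagaagcagtagcagtggggaccagtcat
Fosl2 probe at base 1326: gggacacgccctccctcattcatcttgcaa
Fosl2 probe at base 5460: ttaacggtgaaacggccctaggagggtcgc
The raw signal table gives the Fosb probe at base 2 another name, LOC100048439, so that its assignment to Fosb is uncertain. Fosl1 and Ccdc85b are neighbours whose annotations overlap in RefSeq (GRCm38.p6), and a separate Ccdc85b probe changed by 0.29 in WT (adjusted p = 0.368) and 0.08 in KO cartilage (adjusted p = 0.811).

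Most subunits, though not Batf or Jund, rose past the thresholds at 4 h, and the bases before their transcription starts are shown (RefSeq, GRCm38.p6, the 250 bases upstream of the start, 5′ to 3′ on the gene's strand). A window was found for 9 of the 10 subunits, with Fosl1 not among them. Capitals mark short motifs that were searched as letters on both strands: the AP-1 site, the cyclic AMP response element, the leading letters of that element, a site of the Jun and Atf type, and the TATA box. The leading letters and the Jun and Atf type site were added to the search after the windows had been read. The promoters of Fos, Jun and Maff are printed because they hold the longer motifs, and those of Atf3 and Junb as the Atf gene of the set and the Jun gene with the larger rise.
Fos, chr12:85473640-85473889, plus strand: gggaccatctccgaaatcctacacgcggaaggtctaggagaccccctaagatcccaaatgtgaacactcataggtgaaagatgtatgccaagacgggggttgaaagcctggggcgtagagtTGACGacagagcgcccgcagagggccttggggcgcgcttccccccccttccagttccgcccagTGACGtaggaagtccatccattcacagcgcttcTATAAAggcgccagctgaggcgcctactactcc
Jun, chr4:95052223-95052472, minus strand: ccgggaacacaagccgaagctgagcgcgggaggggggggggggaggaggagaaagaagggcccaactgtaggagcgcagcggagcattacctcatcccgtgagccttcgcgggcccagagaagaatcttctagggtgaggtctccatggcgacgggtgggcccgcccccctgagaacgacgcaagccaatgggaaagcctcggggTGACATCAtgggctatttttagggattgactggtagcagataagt
Junb, chr8:84978749-84978998, minus strand: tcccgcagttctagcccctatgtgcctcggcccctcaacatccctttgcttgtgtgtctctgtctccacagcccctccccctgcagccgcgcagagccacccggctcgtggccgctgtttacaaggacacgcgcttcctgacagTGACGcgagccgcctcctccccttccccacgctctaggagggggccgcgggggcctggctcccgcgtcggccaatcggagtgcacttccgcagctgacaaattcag
Atf3, chr1:191183334-191183583, minus strand: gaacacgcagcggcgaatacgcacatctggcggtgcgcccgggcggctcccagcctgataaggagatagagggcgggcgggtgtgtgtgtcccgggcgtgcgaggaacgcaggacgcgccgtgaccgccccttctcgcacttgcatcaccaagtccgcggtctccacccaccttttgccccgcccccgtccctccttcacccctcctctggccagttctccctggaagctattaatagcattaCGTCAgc
Maff, chr15:79347270-79347519, plus strand: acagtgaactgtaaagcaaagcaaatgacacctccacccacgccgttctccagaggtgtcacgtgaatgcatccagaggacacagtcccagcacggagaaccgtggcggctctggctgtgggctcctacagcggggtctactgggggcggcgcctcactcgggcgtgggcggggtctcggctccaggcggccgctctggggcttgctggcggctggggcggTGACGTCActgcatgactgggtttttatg
The leading letters of the cyclic AMP response element, TGACG, began 129 and 66 bases before the start of Fos. They stood in at least 1 window of Fos, Fosb, Junb, Atf3, Batf and Maff, and in 17.8% of 32851 windows of the same length. The whole element, TGACGTCA, began 29 bases upstream in the Maff window shown and was present in 1.55% of all windows. The Jun and Atf type site, TGACATCA, began 45 bases upstream in Jun and in a further Maff window, and was present in 2.93% of all windows.

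The TATA box motif, TATAAA, began 33 bases before the start of Fos and was present in 12.4% of all windows. The AP-1 site, TGACTCA, was in none of the windows of the subunits and in 4.46% of all windows. The CArG box, the motif of serum response factor, was not found in them either and stood in 1.47% of all windows. Bases further upstream were not searched, so these absences hold for the 250-base windows only. A match of letters is a description of the window and not a measured binding site.

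Most AP-1 subunits were higher in injured than in control cartilage in both genotypes, from the Fos group through Jun and Junb to Atf3. In WT cartilage, 8 of the 12 probes were upregulated, with a fitted change above 2-fold and an adjusted p below 0.05, and none was downregulated, against 7.55% higher and 7.14% lower among all probes. In Mapk9 KO cartilage, 9 of the 12 were upregulated and none was downregulated, against 9.59% higher and 9.14% lower among all probes. With a gene counted when any of its probes was called, both counts covered the same 8 genes of 9 (Fos, Fosb, Fosl1, Fosl2, Jun, Junb, Atf3 and Maff). Batf was the exception in each genotype. The brightest Fosl2 probe, at base 5460, stayed under the 2-fold limit in both genotypes. Counted by the brightest probe of a gene, as the gene lists below are, Fosl2 would drop out. Some of these calls rest on fitted values over controls that were not detected, and for Maff the bounds stay below 2-fold. On the adjusted p alone, 11 of the 12 probes were higher in WT and 11 in KO cartilage, where the shares of all probes were 12.6% and 19%. The median log2 difference of the 12 probes was 2.21 in WT and 2.48 in KO cartilage, and that of all probes was -0.02 in each. Averaged over both genotypes, 9 of the 12 probes were upregulated, against 8.06% of all probes. In these bulk samples fewer cells of a type and less RNA per cell cannot be told apart.

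**Figure D1:**
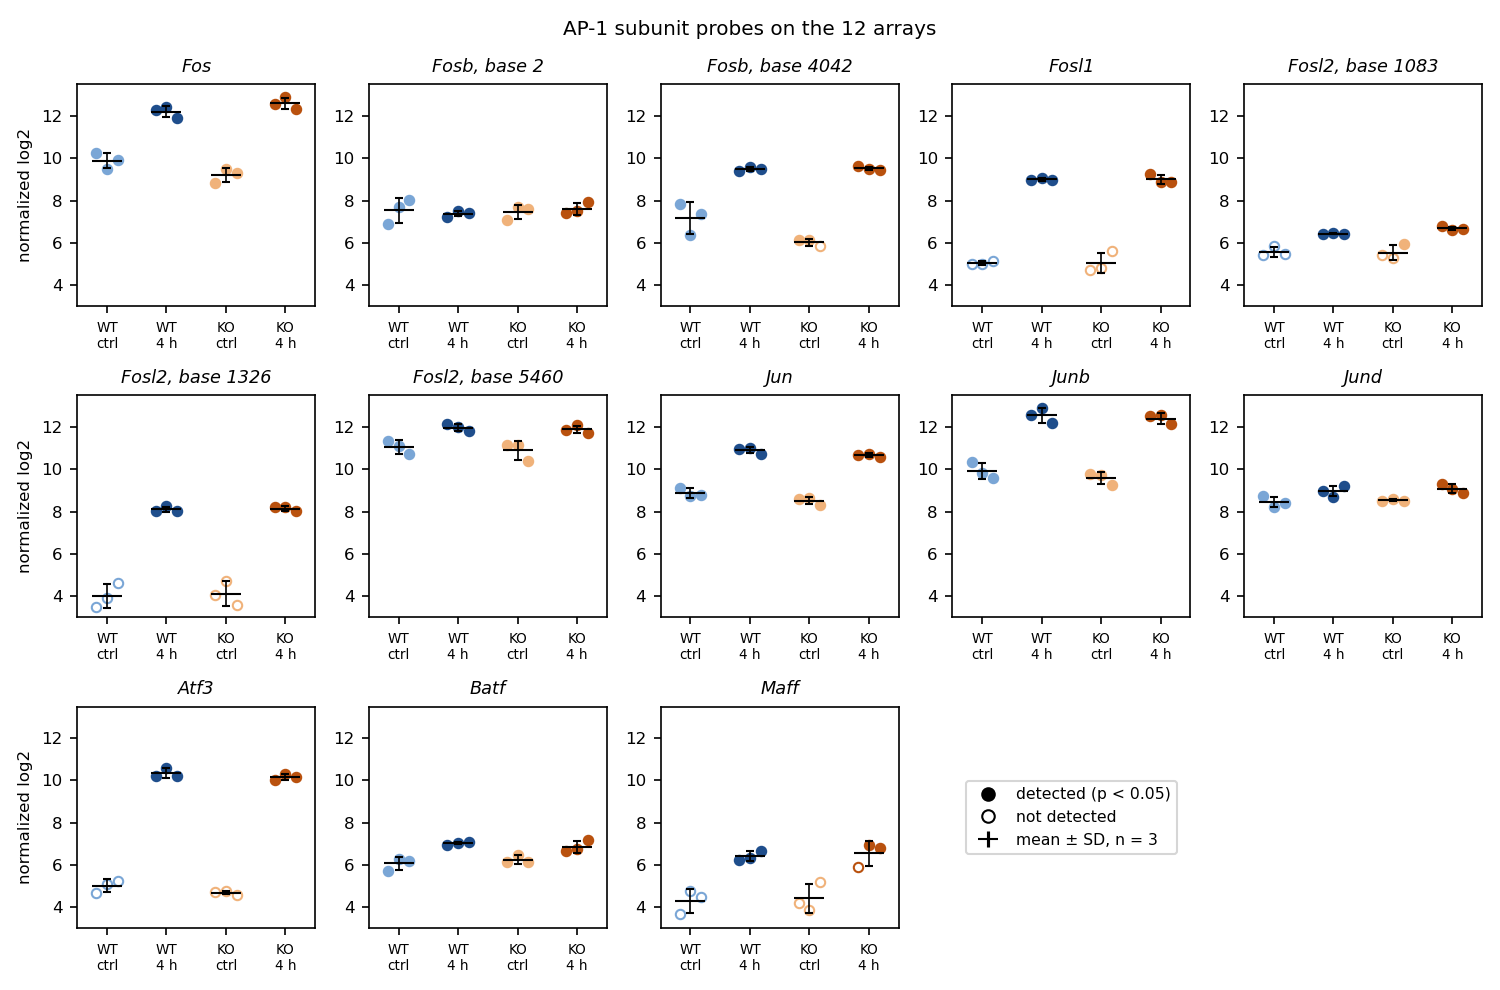
Normalized log2 values of the 12 AP-1 probes and of Jund on each array, by group (ctrl, control; 4 h, injured), with mean ± SD of 3 arrays; open circles were not detected. Injured arrays stand above control arrays in every panel but those of the Fosb probe at base 2 and, in WT, of Jund; levels of different panels cannot be set against each other.

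Fos encodes the founding Fos protein and is the most widely used marker of recent cell stimulation. Its probe read 10.24, 9.51 and 9.93 in WT control and 12.28, 12.44 and 11.92 in WT injured cartilage. In Mapk9 KO cartilage it read 8.84, 9.48 and 9.31 in control and 12.60, 12.89 and 12.36 in injured samples. Control and injured arrays did not overlap in either genotype. Fos rose by 2.32 ± 0.25 (log2, SE; 5.0-fold) in WT (adjusted p = 0.000138) and by 3.41 ± 0.22 (10.6-fold) in KO cartilage (adjusted p = 1.12e-06).

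Fosb encodes a Fos paralogue that is also made as a truncated form. The probe at base 4042 read 7.82, 6.36 and 7.37 in WT control and 9.40, 9.59 and 9.49 in WT injured cartilage. In KO cartilage it read 6.13, 6.14 and 5.84 in control, where 2 of 3 arrays detected it, and 9.63, 9.49 and 9.47 after injury. The injured arrays were tightly grouped and lay above all controls, while the WT controls were the most scattered group of any probe here, with an SD of 0.75. Fosb rose by 2.31 ± 0.33 in WT (4.97-fold, adjusted p = 0.000783) and was called higher in KO cartilage (fitted difference 3.49, adjusted p = 2.35e-07). The KO controls lay close to the lowest signals among detected probes, 6.05, 5.83 and 5.93 on these arrays, so no exact fold is given there. Without background correction, on quantile normalized raw signals, the rises were 1.65 and 2.29. A two-sample t-test with the same adjustment gave an adjusted p of 0.0512 for the WT rise. By contrast, the probe at base 2 differed by -0.14 in WT (adjusted p = 0.761) and by 0.15 in KO cartilage (adjusted p = 0.636), with control arrays between 6.89 and 8.02 and injured arrays between 7.25 and 7.95.

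Fosl1 (Fra-1), a Fos protein lacking the C-terminal transactivation domain, was seen in injured and not in control cartilage. It read 4.98, 5.01 and 5.15 in WT control and 8.98, 9.07 and 8.97 in WT injured cartilage. The KO arrays read 4.73, 4.82 and 5.60 in control and 9.26, 8.90 and 8.89 after injury. No control array detected the probe and every injured array did. Injured cartilage was at least 8.94-fold higher in WT (adjusted p = 1.19e-06) and at least 8.48-fold higher in KO cartilage (adjusted p = 8.99e-07). These bounds set the injured mean against the lowest signal among detected probes on the control arrays. They hold for the deposited, background-corrected values: raw signals quantile normalized without background correction gave rises of 2.10 in WT and 2.15 in KO cartilage (log2), below the bounds and past the thresholds.

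Fosl2 (Fra-2), the remaining Fos protein and one with a known role in chondrocyte differentiation, was read by 3 probes that all rose but by different amounts. The probe at base 1326 read 3.47, 3.9 and 4.61 in WT control, 8.05, 8.25 and 8.03 in WT injured, 4.04, 4.73 and 3.56 in KO control and 8.20, 8.21 and 8.01 in KO injured cartilage. It was detected on all injured arrays and on no control array, and injured cartilage was at least 4.80-fold higher in WT (adjusted p = 1.12e-05) and at least 4.62-fold higher in KO cartilage (adjusted p = 1.32e-06). Without background correction the rise was 1.65 in each genotype (log2), below these bounds and past the thresholds. The probe at base 5460 was bright in every group, between 10.38 and 11.34 on control and between 11.72 and 12.14 on injured arrays. Its groups did not overlap, yet its rise of 0.93 in WT (adjusted p = 0.0132) and 0.99 in KO cartilage (adjusted p = 0.00669) stayed under the 2-fold limit. In KO cartilage the probe at base 1083 was detected on 1 of 3 control arrays, so that its fitted rise of 1.14 (adjusted p = 0.00123) is measured largely against background. In WT it was not detected in control cartilage, and injured cartilage was at least 1.51-fold higher (adjusted p = 0.0104). Without background correction this WT rise was 0.35 (log2), below the bound. The size of these smaller changes lay close to the limit. In WT, the probe at base 5460 passed it when control replicate 1 (1.07) or injured replicate 3 (1.01) was left out, as it did in KO cartilage without KO control replicate 1 or 2 or KO injured replicate 3 (1.12, 1.13 and 1.08). In WT the probe at base 1083 passed it without WT control replicate 2 (1.01) and missed it in KO cartilage, at 0.45, after quantile normalization without background correction. The 3 probes disagreed on the size of the change, and no single fold stands for Fosl2.

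Jun encodes the JNK substrate from which the kinase takes its name. It read 9.14, 8.74 and 8.77 in WT control and 10.98, 11.02 and 10.75 in WT injured cartilage. In KO cartilage it read 8.58, 8.64 and 8.34 in control and 10.70, 10.74 and 10.57 after injury. All injured arrays lay above all control arrays. The rise was 2.04 ± 0.21 (SE) in WT (4.10-fold, adjusted p = 0.000112) and 2.15 ± 0.17 in KO cartilage (4.44-fold, adjusted p = 4.78e-06).

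Junb, a Jun paralogue that can restrain Jun activity, rose further. Its probe read 10.36, 9.82 and 9.59 in WT control and 12.57, 12.92 and 12.19 in WT injured cartilage. The KO arrays read 9.78, 9.74 and 9.28 in control and 12.52, 12.58 and 12.13 after injury. The groups were well apart, with a rise of 2.64 ± 0.27 in WT (6.22-fold, adjusted p = 0.000115) and 2.81 ± 0.21 in KO cartilage (7.0-fold, adjusted p = 2.71e-06). A second Junb probe outside the normalized table gave raw signals of 112 to 213 and was detected on 2 of the 12 arrays, both of KO control cartilage.

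Jund is the Jun protein that is commonly present in resting cells. It read 8.73, 8.23 and 8.42 in WT control, 9.0, 8.71 and 9.21 in WT injured, 8.52, 8.61 and 8.5 in KO control and 9.31, 9.07 and 8.90 in KO injured cartilage. It was detected on all 12 arrays, and control and injured values overlapped in WT but not in KO cartilage. Its difference was 0.51 in WT (1.42-fold, adjusted p = 0.124) and 0.55 in KO cartilage (1.47-fold, adjusted p = 0.0291), below the 2-fold limit in both.

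Atf3, a stress-induced member of the ATF/CREB group that can pair with Jun proteins, went from below detection to bright signal. It read 4.68, 5.12 and 5.25 in WT control and 10.23, 10.61 and 10.19 in WT injured cartilage. The KO arrays read 4.70, 4.78 and 4.60 in control and 10.04, 10.29 and 10.15 after injury. The probe was detected on every injured array and on no control array. Injured cartilage was at least 22.6-fold higher in WT (adjusted p = 9.97e-07) and at least 18.7-fold higher in KO cartilage (adjusted p = 6.22e-08). Quantile normalization of the raw signals without background correction gave smaller rises that lay below these bounds, 3.24 in WT and 3.21 in KO cartilage (log2), and both passed the thresholds.

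Batf, best known as a partner of Jun proteins in lymphocytes, was detected on all 12 arrays and stayed under the 2-fold limit in both genotypes. It read 5.71, 6.30 and 6.20 in WT control, 6.96, 7.06 and 7.07 in WT injured, 6.13, 6.48 and 6.16 in KO control and 6.64, 6.77 and 7.17 in KO injured cartilage. Control and injured arrays did not overlap. The rise was 0.96 ± 0.22 in WT (1.95-fold, adjusted p = 0.00913) and 0.61 ± 0.20 in KO cartilage (1.52-fold, adjusted p = 0.0327). The WT value passed the 2-fold limit, at 1.04 when raw signals were renormalized by normexp and quantiles, at 1.01 when array medians were subtracted, and at 1.08 and 1.03 without WT control replicate 2 or 3. Quantile normalization without background correction gave smaller rises, 0.47 in WT and 0.29 in KO cartilage (log2). A two-sample t-test gave an adjusted p of 0.0529 in WT and 0.0931 in KO cartilage.

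Maff encodes a small Maf protein that dimerizes with Fos proteins and with cap'n'collar factors. It read 3.68, 4.78 and 4.48 in WT control, 6.22, 6.33 and 6.68 in WT injured, 4.22, 3.86 and 5.17 in KO control and 5.89, 6.96 and 6.78 in KO injured cartilage. No control array detected it, and 3 of 3 WT and 2 of 3 KO injured arrays did. Injured cartilage was at least 1.48-fold higher in WT (adjusted p = 0.000661) and at least 1.53-fold higher in KO cartilage (adjusted p = 0.000812). The call was lost in both genotypes, at 0.64 and 0.66 (log2), when raw signals were quantile normalized without background correction, and in KO cartilage by the two-sample t-test (adjusted p = 0.0514). A second Maff probe outside the normalized table was detected on none of the 12 arrays, with raw signals of 98.2 to 146.

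**Figure D2:**
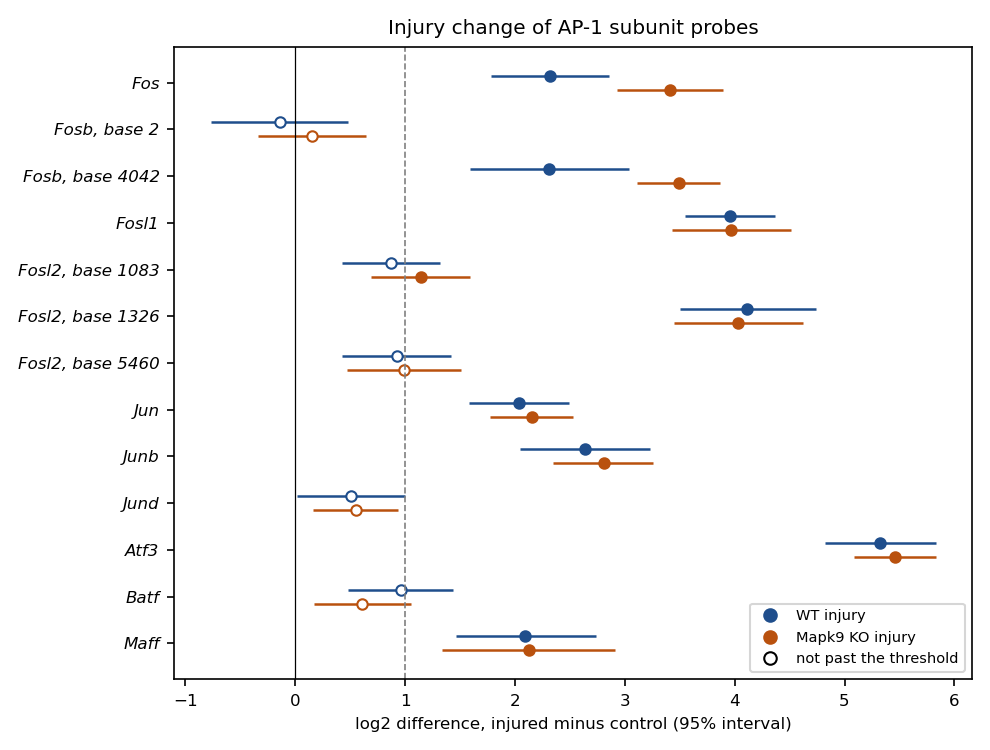
Fitted log2 difference between injured and control cartilage (3 against 3 arrays) with its 95% interval, for each AP-1 probe and Jund in WT and Mapk9 KO cartilage; the dashed line is 2-fold, and open circles did not pass both thresholds. Fitted values of Fosl1, Atf3, Maff, the Fosl2 probe at base 1326 and, in WT, that at base 1083 start from undetected controls, and Fos and the Fosb probe at base 4042 are the members with the widest gap between the genotypes.

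Whether loss of Mapk9 changed AP-1 transcripts was asked in 3 ways: in control cartilage, in injured cartilage, and in the size of the injury change. No probe of the 12 passed the limma test in control cartilage, against 0.119% of all probes, and none passed in injured cartilage, against 0.181%. At an unadjusted p below 0.05, 2 of the 12 differed in control cartilage (Fos and the Fosb probe at base 4042; 6.46% of all probes) and 0 in injured cartilage (12.6% of all probes). A two-sample t-test with the same adjustment called 0 of the 12 in each, and 0 of all 21004 probes. The comparisons share arrays and are not independent of each other.

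In control cartilage Fos was 0.68 lower on the log2 scale in KO than in WT samples (-0.68, 95% interval -1.25 to -0.11, adjusted p = 0.69), and the Fosb probe at base 4042 differed by -1.15 (-1.88 to -0.42, adjusted p = 0.552). The Fosb difference was -0.55 on raw signals quantile normalized without background correction. The highest KO value was 9.48 against a lowest WT value of 9.51 for Fos, and 6.14 against 6.36 for Fosb. Without WT control replicate 2, the lowest of the WT values, the Fosb difference was -1.56 and passed the test (adjusted p = 0.0444). Jun differed by -0.36 in control cartilage (interval -0.83 to 0.11, adjusted p = 0.869). These values are unpaired. With replicate numbers as pairs, 2 of the 12 and 1931 of all 21004 probes had an unadjusted p below 0.05 (limma). The paired interval was -1.34 to -0.03 for Fos (adjusted p = 0.531) and -1.87 to -0.42 for this Fosb probe (adjusted p = 0.43). KO minus WT was negative in every pair for Fos, this Fosb probe, Jun and Junb. The share of all probes with the same sign in every pair was not counted. The skeletal muscle markers, 18 of 18 measured, had a mean log2 level of 12.55 to 12.91 in KO control and 10.49 to 12.55 in WT control cartilage, and their part in these differences was not tested.

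In injured cartilage Fos differed by 0.41 (interval -0.04 to 0.86, adjusted p = 0.443), the Fosb probe at base 4042 by 0.03 (-0.31 to 0.38, adjusted p = 0.949) and Fosl1 by 0.01 (-0.36 to 0.39, adjusted p = 0.984). Jun differed by -0.25 (-0.61 to 0.11, adjusted p = 0.557). Atf3 differed by -0.19 (-0.58 to 0.21, adjusted p = 0.692) and Junb by -0.15 (-0.64 to 0.34, adjusted p = 0.807). These intervals come from the fit without the replicate block. With replicate numbers as pairs, 188 of all probes (0.895%) and 0 of the 12 passed in injured cartilage, and 1 of the 12, Fos, had an unadjusted p below 0.05 (21.1% of all probes). Within numbers, the KO minus WT differences of Fos were 0.33, 0.45 and 0.44, all above 0, and the paired interval was 0.13 to 0.69 (adjusted p = 0.14). Those of Jun were -0.28, -0.28 and -0.18, all below 0, with a paired interval of -0.53 to 0.03 (adjusted p = 0.278). Junb (-0.05, -0.34 and -0.06), Atf3 (-0.19, -0.32 and -0.05) and the Fosl2 probe at base 1083 (0.36, 0.16 and 0.22) also kept their sign. The share of all probes that did so was not counted. In either fit, a p above the threshold does not show that the genotypes were alike.

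The injury change itself was compared through the interaction of injury and genotype over all 12 arrays. None of the 12 probes passed limma's adjusted threshold, as was true of all probes (0%), and 2 of the 12 had an unadjusted p below 0.05 (9.94% of all probes). These were Fos, whose rise was 1.09 larger in KO cartilage (log2, interval 0.36 to 1.81, adjusted p = 0.338), and the Fosb probe at base 4042, whose rise was 1.18 larger (0.34 to 2.02, adjusted p = 0.361). Neither passed in any of the 20 alternative settings tried, where the adjusted p ran from 0.13 to 0.647 for Fos and from 0.0867 to 0.649 for Fosb. Over those settings the value ran from 0.90 to 1.28 for Fos and from 0.63, without background correction, to 1.59 for Fosb, whose KO control values lie close to background. For Jun, the interaction was 0.11 (-0.41 to 0.64), for Junb 0.17 (-0.58 to 0.92), for Atf3 0.14 (-0.44 to 0.71) and for Fosl1 0.01 (-0.65 to 0.67). Batf had the most negative value, -0.35 (-0.96 to 0.26, adjusted p = 0.719). With replicate numbers as pairs, the Fos interval was 0.34 to 1.83 (limma, adjusted p = 0.162). That of the Fosb probe at base 4042 was 0.33 to 2.03 (adjusted p = 0.179).

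**Figure D3:**
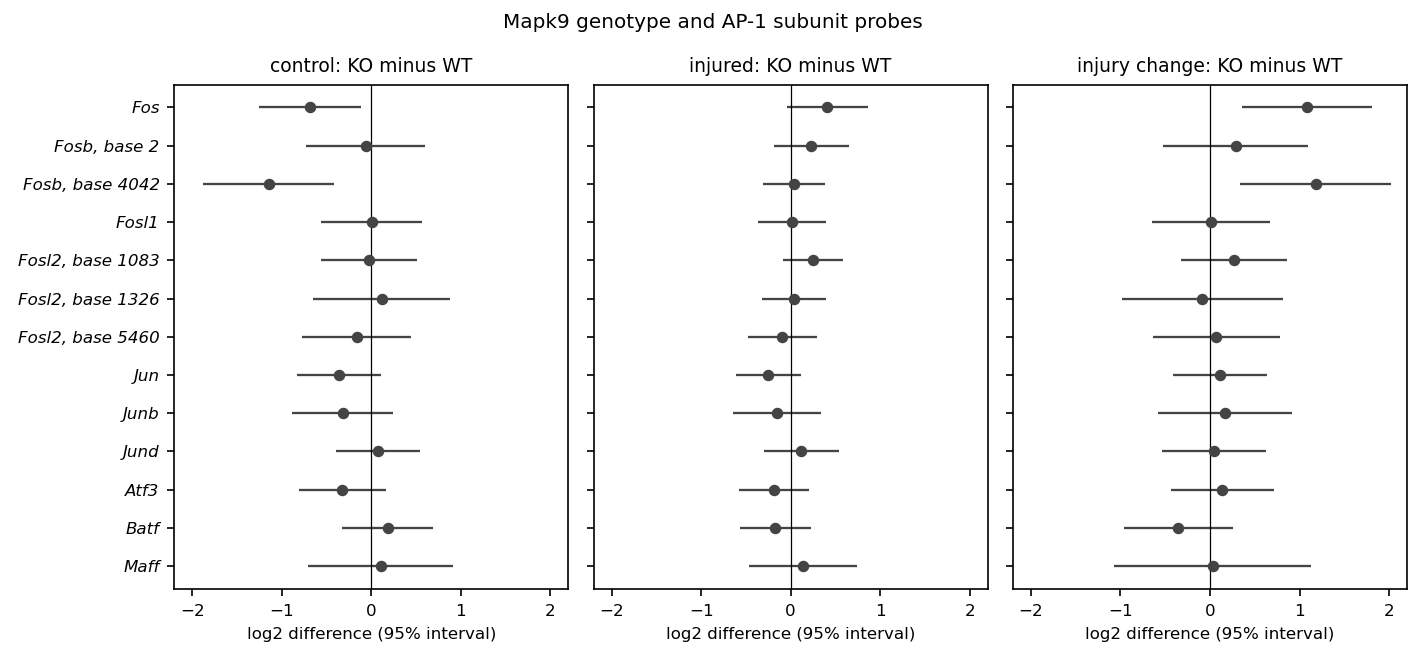
Log2 differences between Mapk9 KO and WT cartilage with 95% intervals for each AP-1 probe and Jund, in control samples, in injured samples and in the injury change. The intervals of Fos and of the Fosb probe at base 4042 exclude 0 in control and in the injury change but not in injured cartilage, in the fit without the replicate block, and no difference passed adjustment over all probes.

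Other leucine zipper factors were followed as a list. Of 22 listed relatives, 17 had a probe; 7 were upregulated and 0 downregulated in WT, and 7 were upregulated and 1 downregulated in KO cartilage, with a median log2 difference of 0.70 and 0.50. Among all probes, 7.55% were higher and 7.14% lower in WT, 9.59% and 9.14% in KO cartilage, and the median was -0.02 in each. Ddit3 (CHOP, a stress-response C/EBP partner) rose by 2.60 in WT (adjusted p = 0.000115) and 2.63 in KO cartilage (adjusted p = 9.88e-07), and Cebpb (an inflammatory regulator) by 2.44 (adjusted p = 2.42e-05) and 2.32 (adjusted p = 5.65e-06). At the other end, Maf differed by -0.70 in WT (adjusted p = 0.0313) and fell by 1.04 in KO cartilage (adjusted p = 0.000566). Atf2, a Jun partner activated by phosphorylation, differed by -0.31 (adjusted p = 0.273) and -0.33 (adjusted p = 0.146).

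Of 24 listed AP-1 targets, 22 had a probe; 12 were upregulated in WT and 13 in KO cartilage and none was downregulated, with median log2 differences of 1.36 and 1.67. The same shares of all probes, 7.55% higher in WT and 9.59% in KO cartilage, and the same median of -0.02 stand beside these counts. Some of these calls rest on controls that were not detected: the bounds of Lif stay under 2-fold in both genotypes, as does that of Mmp10 in WT, and Il6 was detected on 2 of the 12 arrays. Cxcl1, a neutrophil chemokine, was at least 99.8-fold higher in WT injured cartilage (adjusted p = 6.07e-06) and was also called in KO cartilage (adjusted p = 6.22e-08), where 1 of 3 control arrays detected it and no exact fold is given. Il11, a cytokine of the interleukin-6 family, was at least 13-fold higher in WT (adjusted p = 5.9e-06) and at least 14.7-fold higher in KO cartilage (adjusted p = 1.46e-07). These bounds hold for the deposited, background-corrected values only. Mmp9, a gelatinase, differed by -0.37 in WT (adjusted p = 0.287) and -0.90 in KO cartilage (adjusted p = 0.00596, under the 2-fold limit), and the cyclin gene Ccnd1 by -0.35 (adjusted p = 0.286) and -0.23 (adjusted p = 0.424).

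Kinases and serum response factors that act upstream of AP-1 were listed with 16 genes. Of these, 13 had a probe, and the main probes of 0 passed limma's thresholds in either genotype, where 7.55% of all probes were higher and 7.14% lower in WT and 9.59% and 9.14% in KO cartilage. With 13 genes, a count of 0 is not far from those shares. The median differences were 0.02 in WT and -0.04 in KO cartilage. The Mapk9 probe at base 4211 differed by -0.45 in WT (adjusted p = 0.163) and -0.45 in KO cartilage (adjusted p = 0.0481, under the 2-fold limit). The fainter probe at base 900 was called lower in WT (adjusted p = 0.0206), where 1 of 3 injured arrays detected it. The JNK kinase Map2k4 differed by 0.42 (adjusted p = 0.165) in WT and 0.44 (adjusted p = 0.113) in KO cartilage, and Mapk3 (ERK1) by 0.21 (adjusted p = 0.504) and 0.48 (adjusted p = 0.0492, under the 2-fold limit). Mapk8, which encodes JNK1, differed by -0.61 (adjusted p = 0.0607) and -0.27 (adjusted p = 0.288). These are transcript levels, and phosphorylation of the kinases or of Jun was not measured.

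Markers of other cell types moved with the injury contrast, and their counts stand beside shares of all probes of 7.55% higher and 7.14% lower in WT and 9.59% and 9.14% in KO cartilage. Skeletal muscle markers were downregulated for 15 of 18 genes in WT and 18 of 18 in KO cartilage, their mean log2 level going from 10.49 to 12.55 in WT control to 7.95 to 9.82 in WT injured, and from 12.55 to 12.91 in KO control to 8.40 to 9.52 in KO injured cartilage. Chondrocyte markers were upregulated for 8 of 11 genes in each genotype (WT control 10.08 to 10.85, WT injured 11.80 to 12.15, KO control 10.08 to 10.87, KO injured 11.94 to 12.06). Neutrophil markers were upregulated for 4 of 9 genes in each (WT 12.48 to 13.15 in control and 13.80 to 14.03 after injury, KO 12.92 to 13.26 and 13.51 to 14.01). Macrophage markers were downregulated for 5 of 8 genes in WT and 6 of 8 in KO cartilage, and 1 was upregulated in each (WT 9.40 to 9.78 in control and 8.97 to 9.37 after injury, KO 9.58 to 9.72 and 8.78 to 9.02). Erythroid markers fell for 1 of 6 genes in WT and 0 of 6 in KO cartilage, endothelial markers rose for 1 of 6 and 0 of 6, and of the osteoblast markers 1 of 6 rose and 1 of 6 fell in each. The erythroid, endothelial and osteoblast counts lie near the shares of all probes. No marker was undetected on all 12 arrays. The part of these shifts in the AP-1 changes was not tested.

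**Figure D4:**
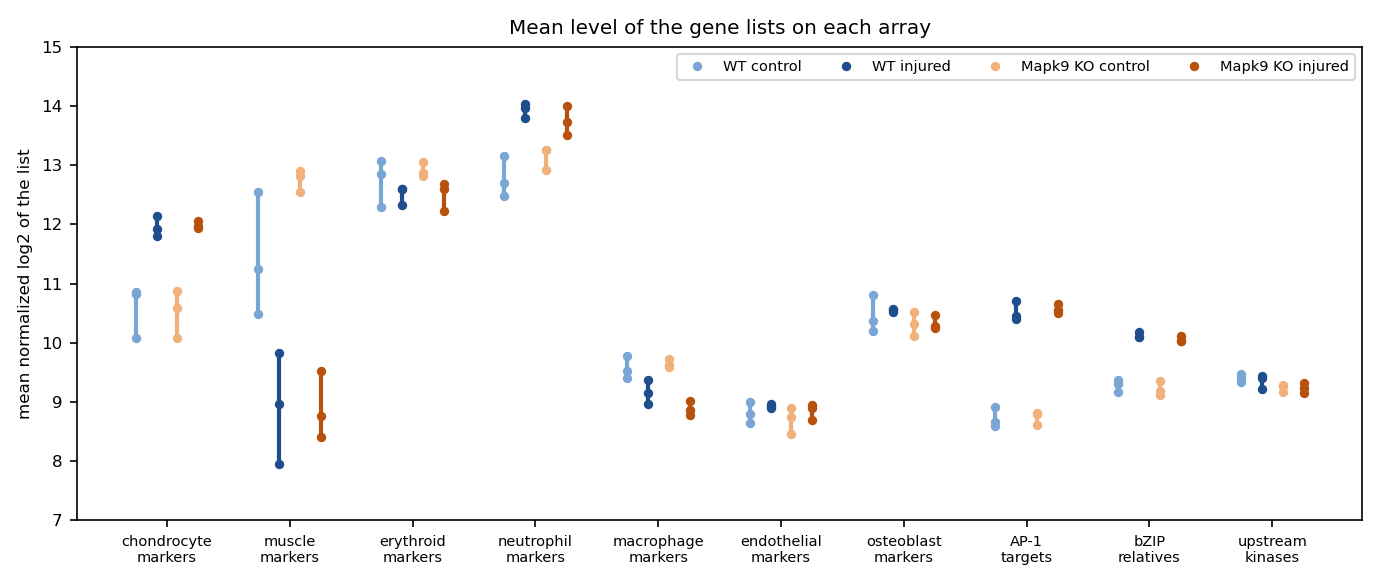
Mean normalized log2 level of each gene list on each of the 12 arrays, 3 points per group, with a line from the lowest to the highest array. The AP-1 targets and the bZIP relatives stood higher on all injured arrays, the upstream kinases lay between 9.15 and 9.47 on all 12 arrays, and the muscle markers stood lower on all injured arrays; levels of different lists cannot be set against each other.

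Genes whose pattern over the 12 arrays was most like that of Fos, Jun and Fosl1 were sought among all other symbols. For Fos they were Pscd1 (now Cyth1, Pearson r = 0.993), the glucose transporter gene Slc2a1 (r = 0.992) and Dtr (now Hbegf, a growth factor gene, r = 0.990). For Jun they were Sox7 (r = 0.996), 3830421F03Rik (now Pvr, r = 0.995) and the early response gene Ier3 (r = 0.995). For Fosl1 they included 8430403J19Rik (r = 0.996) and Per (r = 0.994). The 12 arrays fall into control and injured clusters and share their normalization, so these coefficients describe mainly the step between the clusters and carry no test.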

How the data were processed

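Gene expression was measured in 12 samples of murine hip cartilage on Illumina mouse BeadChip arrays. The authors subtracted background estimated from negative control probes, applied variance stabilizing normalization and deposited log2 values for 21004 probes, with duplicate symbols kept as separate probes. They also deposited unnormalized bead signal intensities with detection p-values for 45281 probes, and a probe was called detected at a deposited p-value below 0.05. In 4200 probes the symbols of the deposited tables differ. Log2 values were compared with limma 3.58.1 in R 4.3.3 (lmFit and eBayes), on the 6 arrays of each comparison or on all 12 for the interaction and the average, and p-values were adjusted by Benjamini and Hochberg's method across the whole table. Calls needed more than a 2-fold change and an adjusted p below 0.05; the interaction had no fold limit. The fit was tested on simulated data. The number of arrays limits the precision.

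Where no array of a group detected a probe, the fold is a lower bound for the deposited, background-corrected values. It sets the mean of the brighter group against the mean, per array, of the higher of the lowest log2 value among detected probes and the probe's own value. Motifs were searched in the RefSeq promoter table. Named genes were all subunit probes, Mapk9, the 2 largest and 2 smallest average changes of each list among main probes (highest mean) detected on all arrays of a group, and the 3 symbols best correlated with each of Fos, Jun and Fosl1, of which 1 is not reported here. List counts use 1 main probe per gene. The subunits and lists were chosen with earlier results of these data known.

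Groups came from the labels. After group means were taken out, same-numbered samples of different groups deviated together (18 pairs, correlations 0.153 to 0.390, median 0.249). The 36 other pairs ran from -0.289 to 0.0825. Deviations cancel out within a group, so positive same-numbered pairs push the other pairs down, and these are no separate evidence. The replicate numbers were taken to pair the samples. The main fits left the pairing out, and the replicate block was fitted as an alternative. Other alternatives changed the normalization, probe filter, thresholds, test, probe per gene and arrays, and added a block for the digit of each label's position code. No 2 arrays held identical values.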

Additional observations from a re-analysis of the deposited data

How the results depend on the processing

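The counts of AP-1 probes called stayed within 1.5 times of 8 (WT injury), 9 (KO injury) and 9 (average) in every alternative run, and 0 were called between genotypes or for the interaction except without WT control replicate 2 (0 to 1 in control over the arrays left out, the Fosb probe at base 4042). Over all probes, quantile normalization without background correction gave 1140 calls for WT injury, 1756 for KO injury, 1413 for the average, 13 for genotype in control and 22 for genotype in injured cartilage. A two-sample t-test gave 1624, and 0 for each genotype comparison. Without a fold limit the counts were 5319 (WT), 8045 (KO) and 9819 (average), and at 1.5-fold 5299, 7323 and 6839. Testing all probes of the array, on raw signals renormalized by normexp and quantiles, gave 14 (genotype in control) and 22 (injured). All 12 arrays in 1 fit gave 44 in control. The replicate block, which follows the pairing by number, gave 188 for genotype in injured cartilage and 112 for the interaction, with none of the 12 AP-1 probes among them (interaction of Fos adjusted p = 0.162, of Fosb 0.179), and changed no other call of a subunit.

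Leaving out 1 array gave 17 to 412 probes for genotype in control (the highest without WT control replicate 3), 23 to 154 in injured cartilage (the lowest without WT injured replicate 2, the highest without WT injured replicate 1; 64 without KO injured replicate 2) and 0 to 242 for the interaction (the highest without WT control replicate 3). The sign of the Fosb probe at base 2 depended on the array left out (-0.462 to 0.101 in WT, -0.034 to 0.263 in KO), as did that of the Fosb probe at base 4042 between injured genotypes (-0.016 to 0.083). In WT cartilage the Fosb probe at base 4042 missed the threshold by the t-test (adjusted p = 0.0512), as did Maff in KO cartilage (0.0514). The cause of these shifts was not tested. For Fosl1, Atf3, Maff, the Fosl2 probe at base 1326 and, in WT, that at base 1083 signal over background limits the control values to bounds.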
